A study of Mus musculus with 10 samples.

Results

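The genes that copy DNA and that mark S phase of the cell cycle were followed across 5 cell populations of the mouse paw pad, the skin region that carries the sweat glands. Membership was set by a list of 41 gene symbols that hold the replicative helicase and its loaders, the replicative polymerases, the sliding clamp and its loader, the enzymes that supply deoxynucleotides, chromatin factors that work behind the fork, and regulators of S phase entry. A probe set annotated to that symbol alone existed for 40 of the 41, out of 12393 genes measured. The populations were duct basal cells, gland myoepithelial cells, gland luminal cells, duct suprabasal cells and palmoplantar epidermis. All came from wild-type female CD1 mice, an outbred stock, and were purified by fluorescence-activated cell sorting, with 2 Affymetrix arrays per population (10 in all). The labels number the 2 arrays of each population as separate biological samples, but give neither the markers used for sorting nor the age of the mice nor how many animals an array stands for, so p-values measure only the spread between these arrays.

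Before S phase, the origin recognition complex and Cdc6 load rings of the 6 Mcm2 to Mcm7 proteins onto DNA, and Cdc45 helps to turn each ring into the active helicase. Primase and polymerase alpha then lay down primers, which polymerases delta and epsilon extend with the help of the clamp Pcna, while ribonucleotide reductase and the thymidylate enzymes supply the deoxynucleotides. Transcripts of these proteins rise as a cell passes from G1 into S phase, in large part under E2F transcription factors, and fall in cells that have left the cycle. In stratified epithelia the basal layer is known as the layer that holds most dividing cells.

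The promoters of the genes were read because E2F factors are known to act there. RefSeq promoters (GRCm38.p6, 250 bases before to 50 after each annotated start) were matched by symbol for 36 of the 41 genes, with 44 windows among them. Both strands were searched for the E2F-like motif TTTCGCG, its variants TTTGGCG as well as TTTCCCG as well as TTTGCCG, and for CCAAT, the letters of the CCAAT box. At least 1 of the 4 E2F-like motifs stood in 17 of the 44 windows (38.6%), against 6.7% of all 32851 promoter windows and 10.9% of the windows with a GC content of 60% or more. The median GC content was 62.2% in the windows of these genes and 52.7% in all windows. CCAAT stood in 59.1% of the windows of these genes and in 37.4% of all windows. A match is a stretch of letters and does not show that a factor binds. The 200 bases before the start are shown for 3 genes that were far higher in duct basal cells and hold a match (Mcm5, Mcm6 and Uhrf1) and for Rfc1, whose level was nearly flat on the probe set tested and whose window holds none of the 4 motifs. They were picked as examples after the values were seen. Of the genes with a window, 13 of 28 higher in duct basal than in duct suprabasal cells held a match, and 3 of 6 that were tested and not called did. Tk1, Rrm2, E2f8, Prim1 and Pcna held none, and Rpa1, Orc1 and Pola2 held one. Each is written 5′ to 3′ on the strand of the gene, with the E2F-like motifs in capitals. Mcm5 lies on the plus strand (chr8:75109309-75109508), Mcm6 on the minus strand (chr1:128359706-128359905), Uhrf1 on the plus strand (chr17:56304113-56304312) and Rfc1 on the minus strand (chr5:65335640-65335839). In Mcm5 and in the upstream match of Mcm6 the capitals are 2 motifs on opposite strands that overlap, TTTCGCG and TTTGGCG. The first base of the first match lies at position -153 from the start in Mcm5, -110 in Mcm6 and -185 in Uhrf1. Uhrf1 has another annotated start, whose window (chr17:56303087-56303386) holds none of the 4 motifs and is not printed.
Mcm5: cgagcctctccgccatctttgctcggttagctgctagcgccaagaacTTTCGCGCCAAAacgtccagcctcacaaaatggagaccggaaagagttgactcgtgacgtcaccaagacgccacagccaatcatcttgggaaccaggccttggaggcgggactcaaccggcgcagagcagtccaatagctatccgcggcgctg
Mcm6: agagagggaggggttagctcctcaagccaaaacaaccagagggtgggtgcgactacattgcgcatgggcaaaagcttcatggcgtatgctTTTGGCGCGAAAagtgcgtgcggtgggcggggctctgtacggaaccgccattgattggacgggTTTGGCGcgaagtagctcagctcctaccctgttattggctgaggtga
Uhrf1: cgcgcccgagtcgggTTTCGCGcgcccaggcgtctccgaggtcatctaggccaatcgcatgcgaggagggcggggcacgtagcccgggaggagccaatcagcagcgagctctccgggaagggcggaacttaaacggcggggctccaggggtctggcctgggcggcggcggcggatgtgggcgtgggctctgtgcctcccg
Rfc1: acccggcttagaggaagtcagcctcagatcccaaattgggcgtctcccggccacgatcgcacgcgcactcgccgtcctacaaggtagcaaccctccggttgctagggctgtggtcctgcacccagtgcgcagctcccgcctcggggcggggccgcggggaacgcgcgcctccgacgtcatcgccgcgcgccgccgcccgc

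Values are MAS5 signals, which are fluorescence brightness on a linear scale. Differences are given on the scale of log2(signal + 12), which understates the change of dim genes, and the levels of different genes are not compared because each probe set has its own brightness. A gene was tested if 2 or more of the 10 arrays gave it a signal higher than their 40th percentile, which 9320 genes did, and it passed at an adjusted p under 0.05 in a limma fit over all 10 arrays. Of the 40 measured replication genes 39 were tested. Cdc6, E2f1 and E2f8 reached that filter only through the duct basal arrays. Orc1 reached it through the first duct basal array (78.1) and the second epidermis array (47.7). On the 8 other arrays alone Orc1, Cdc6, E2f1 and E2f8 would not have passed and 35 would have. Most defining markers followed the labels. Of the basal keratinocyte genes, Krt5 and Trp63 were higher in duct basal than in duct suprabasal cells (3.10 and 2.73 on the log2 scale) and Krt14 did not pass (0.64, adjusted p = 0.361). The contractile genes Acta2, Myh11 and Cnn1 summed to 67949 and 97781 on the myoepithelial arrays and to no more than 2778 elsewhere. The luminal genes Krt8, Krt18 and Aqp5 were brightest in luminal cells (summed signal 47365 and 61044). None of these luminal genes passed between luminal and duct suprabasal cells (1.33, 1.23 and 1.89, adjusted p = 0.0904, 0.336 and 0.063). Krt8 did not pass between myoepithelial and luminal cells either (-1.37, adjusted p = 0.0541). Krt1, Krt10 and Lor, made by differentiating epidermis, were brightest in epidermis and did not separate the 2 duct layers (0.98, 0.15 and 0.17). Transcripts of other cells were uneven between arrays. Fibroblast markers summed to 86062 on the second duct suprabasal array, immune markers to 5075 and 6933 on the myoepithelial arrays, and luminal markers to 27911 on the first duct suprabasal array. The correlation of the 2 arrays over the genes tested was 0.907 for duct suprabasal cells and between 0.963 and 0.981 for the other populations. Epidermis had the lowest median signals over all genes (65.1 and 66.8), with the other 8 arrays at 91.9 to 119.2.

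Nearly all of the replication genes were brightest in duct basal cells. The mean signal was highest there for 38 of the 40, and both duct basal arrays lay above all 8 other arrays for 34, which held for 31 of the 35 genes that pass the filter without the duct basal arrays. Among all 9320 genes tested, 8.29% had both duct basal arrays above the 8 others. The exceptions were Tyms, which was near the floor everywhere, and Rpa1, which was brightest in luminal cells. The median signal of the 40 genes was 640.5 and 608 on the duct basal arrays, 198 and 194 on the myoepithelial, 132 and 159 on the luminal, 204 and 238 on the duct suprabasal and 228 and 211 on the epidermis arrays. In the F test over the 5 populations 33 of the 39 passed, against 65.7% of all genes tested. The 6 that did not were Orc1, Pola2, Rfc1, Rfc2, Ccne1 and E2f1. In sorted bulk samples a smaller share of S phase cells and less RNA per cell cannot be told apart.

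**Figure D1:**
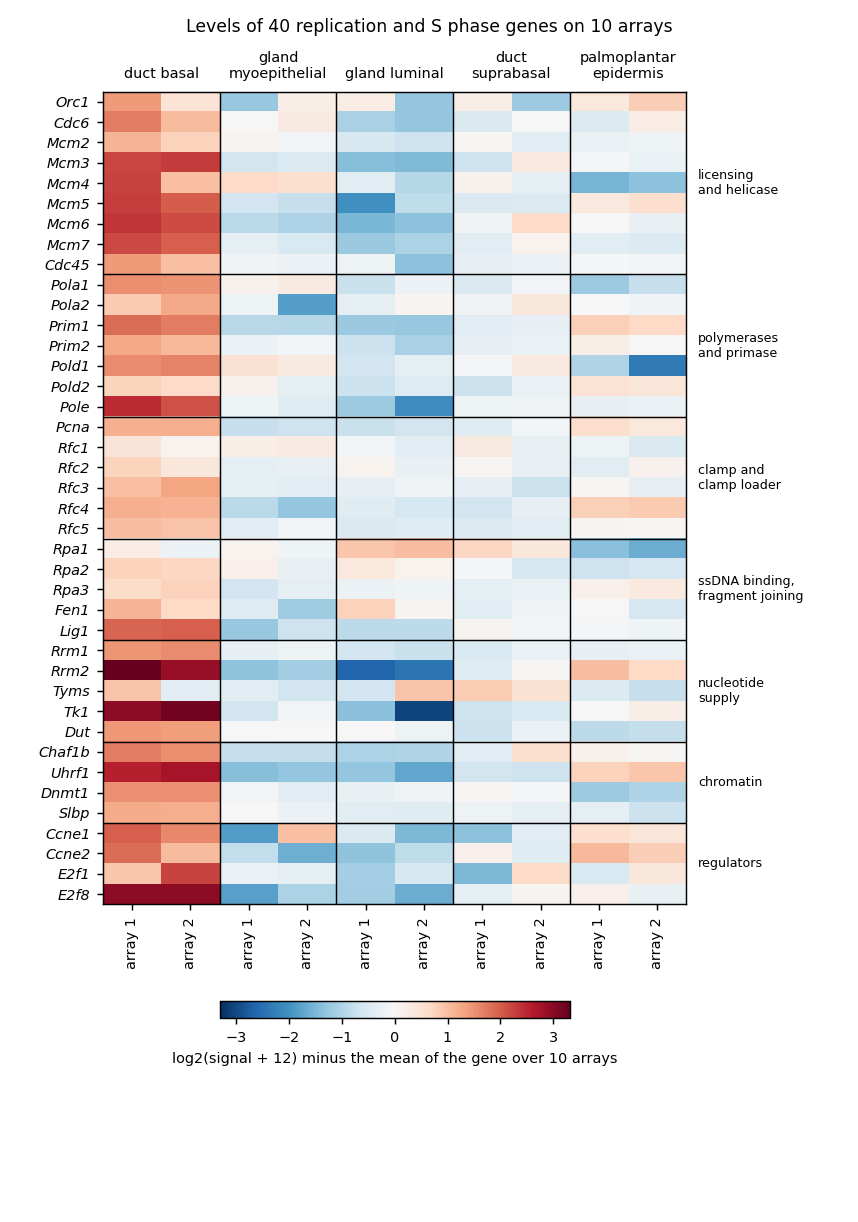
Each row is a replication or S phase gene (40 measured) and each column an array (2 per population, duct basal at the left); colour is log2(signal + 12) minus the mean of the gene over the 10 arrays. The duct basal columns are red for nearly every row, with both arrays above the 8 others for 34 genes, while Rpa1 is reddest in luminal cells and Tyms shows no such column.

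Below duct basal cells the order of the populations differed from gene to gene. Epidermis held the next highest mean for 20 of the 40 genes, myoepithelial cells for 9, duct suprabasal cells for 7 and luminal cells for 3. Luminal cells had the lowest mean for 19, and myoepithelial cells and epidermis for 10 each.

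The 2 layers of the duct were compared first. Duct basal cells were higher than duct suprabasal cells for 32 of the 39 genes tested, and none was lower. Of all genes tested 16.4% were called, 7.97% as higher and 8.39% as lower. Among the 35 genes that pass the filter without the duct basal arrays, 30 were higher. Cdc6 and E2f8, called higher here, are not among the 35. The median difference of the 40 measured genes was 1.60 on the log2 scale, against -0.03 over all 12393 genes. Every functional group took part, with 8 of 9 licensing and helicase genes, 6 of 7 polymerase and primase genes, 4 of 6 clamp and clamp loader genes, 4 of 5 genes of single-strand binding and fragment joining, all 4 tested genes of nucleotide supply, all 4 measured chromatin genes and 2 of 4 regulators. All 6 endothelial and 3 of 6 fibroblast markers were lower in duct basal cells, with summed fibroblast signals of 23954 and 20172 in duct basal and 16256 and 86062 in duct suprabasal cells and summed endothelial signals of 328 and 176 in duct basal and 1922 and 9368 in duct suprabasal cells. Summed luminal markers were 5593 and 3306 in duct basal and 27911 and 13260 in duct suprabasal cells, and the part of these cells in the result was not tested. Without the second duct suprabasal array, 30 of the 39 passed. A fit of the 4 duct arrays alone called 16.

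Among the licensing genes Mcm5, a helicase subunit, changed the most between the duct layers. Its signals were 387 and 312 on the duct basal arrays, 40.3 and 35.7 on the myoepithelial arrays, 7.9 and 33.6 on the luminal arrays, 45.9 and 47.7 on the duct suprabasal arrays and 89.7 and 108 on the epidermis arrays. Both duct basal arrays were over 2-fold above every other array, and the luminal arrays were the dimmest (log2 difference 2.61 ± 0.41 (SE), adjusted p = 0.00483). Mcm6, another subunit, had signals of 2236 and 1916.5 on the duct basal arrays, 220.1 and 199.9 on the myoepithelial arrays, 139 and 158 on the luminal arrays, 387 and 662 on the duct suprabasal arrays and 420.3 and 349.9 on the epidermis arrays. The duct basal arrays were again apart from all others, although the duct suprabasal arrays differed from each other (log2 difference 2.00 ± 0.27 (SE), adjusted p = 0.00255). Mcm3 (log2 difference 2.45), Mcm7 (2.21) and Mcm4 (1.69), which complete the ring with Mcm2, also passed.

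Mcm2 had the smallest difference of the group, with signals of 663 and 510.4 on the duct basal arrays, 316 and 280.0 on the myoepithelial arrays, 203 and 179 on the luminal arrays, 309.6 and 229 on the duct suprabasal arrays and 252 and 268 on the epidermis arrays. The duct basal pair was above every other array (log2 difference 1.09 ± 0.24 (SE), adjusted p = 0.0177). The rank of Mcm2 rests on this probe set. On the other probe set of Mcm2 the difference was 1.82. There the luminal arrays (271 and 187) lay above the myoepithelial arrays (101 and 91.0). Cdc6, which loads the ring, passed at 1.62 and Cdc45 at 1.44 (adjusted p = 0.049). Orc1, the largest subunit of the origin recognition complex, had low signals throughout, at 78.1 and 34.5 on the duct basal arrays, 2.0 and 27.5 on the myoepithelial arrays, 27.8 and 1.9 on the luminal arrays, 27.0 and 2.7 on the duct suprabasal arrays and 30.8 and 47.7 on the epidermis arrays. The higher duct basal array stood alone, the other lay within the range of the remaining arrays, and the difference did not pass (log2 difference 1.43 ± 0.76 (SE), adjusted p = 0.226).

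Of the polymerases, Pole, the catalytic subunit of polymerase epsilon on the leading strand, moved the most. Its signals were 400.2 and 311 on the duct basal arrays, 55.7 and 44.0 on the myoepithelial arrays, 20.6 and 5.5 on the luminal arrays, 54.8 and 56.7 on the duct suprabasal arrays and 49.7 and 52.4 on the epidermis arrays. No other array came near the duct basal pair (log2 difference 2.43 ± 0.38 (SE), adjusted p = 0.0046). Prim1, the catalytic primase subunit, had signals of 1545 and 1382 on the duct basal arrays, 217 and 211 on the myoepithelial arrays, 174 and 168 on the luminal arrays, 326 and 347 on the duct suprabasal arrays and 731 and 664 on the epidermis arrays. Duct basal arrays were highest, epidermis arrays next and the gland arrays lowest, with no overlap between these groups (log2 difference 2.08 ± 0.19 (SE), adjusted p = 0.000491). Pola1, the catalytic subunit of polymerase alpha (1.78), Pold1, that of polymerase delta (1.48), the primase subunit Prim2 (1.44) and the delta subunit Pold2 (1.15) passed as well. Pola2, the second subunit of polymerase alpha, had signals of 145 and 191 on the duct basal arrays, 63.9 and 12.2 on the myoepithelial arrays, 56.6 and 79.2 on the luminal arrays, 66.6 and 99.4 on the duct suprabasal arrays and 73.7 and 67.8 on the epidermis arrays. Its duct basal arrays were the 2 highest, but the difference did not pass (log2 difference 0.93 ± 0.51 (SE), adjusted p = 0.243), and another probe set of Pola2 had the opposite sign.

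The sliding clamp Pcna, which tethers polymerases to DNA, had signals of 10761.5 and 11031 on the duct basal arrays, 2801 and 2988 on the myoepithelial arrays, 2875 and 3113 on the luminal arrays, 3611 and 4471 on the duct suprabasal arrays and 7165 and 6151 on the epidermis arrays. Duct basal cells were highest and epidermis second, and neither overlapped with the other populations (log2 difference 1.44 ± 0.18 (SE), adjusted p = 0.00172 between the duct layers). The small clamp loader subunits Rfc3, Rfc4 and Rfc5 rose by 1.65, 1.63 and 1.41. Rfc3, the member of this group with the largest difference, had signals of 411 and 509.9 on the duct basal arrays, 155 and 151 on the myoepithelial arrays, 162 and 183 on the luminal arrays, 162 and 116 on the duct suprabasal arrays and 203.5 and 163 on the epidermis arrays. The duct basal pair lay above every other array (log2 difference 1.65 ± 0.26 (SE), adjusted p = 0.00483).

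Rfc1, the large clamp loader subunit whose promoter window is printed above, was nearly flat on the probe set tested. Its signals were 494 and 391 on the duct basal arrays, 424 and 439 on the myoepithelial arrays, 341 and 277 on the luminal arrays, 451 and 306 on the duct suprabasal arrays and 323 and 256 on the epidermis arrays. Each population overlapped with at least 1 other, and no difference between duct basal cells and another population passed (log2 difference 0.24 ± 0.26 (SE), adjusted p = 0.571 between the duct layers). On another probe set of Rfc1 the duct basal arrays (149 and 144) lay above the epidermis arrays (72.3 and 50.3). The difference there was 1.13 against epidermis and 0.07 between the duct layers. The remaining probe set of Rfc1 gave 0.50 and 0.42. Rfc2, a small subunit, did not pass between the duct layers (0.65 ± 0.26, SE, adjusted p = 0.117) and passed only against myoepithelial cells (0.84, adjusted p = 0.0435).

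Among the genes that handle the lagging strand, Lig1, the ligase that seals Okazaki fragments, had signals of 851 and 869.6 on the duct basal arrays, 82.0 and 127 on the myoepithelial arrays, 111 and 111 on the luminal arrays, 226 and 201 on the duct suprabasal arrays and 205 and 192 on the epidermis arrays. The duct basal arrays were over 3-fold above every other array (log2 difference 1.95 ± 0.25 (SE), adjusted p = 0.00223). Fen1, the flap nuclease that trims the fragments (1.13, adjusted p = 0.0482), Rpa2 (1.02) and Rpa3 (0.96), subunits of the single-strand binding complex, also rose. Rpa1, its large subunit, did not follow them. Its signals were 3525 and 2636 on the duct basal arrays, 3228 and 2729 on the myoepithelial arrays, 5685.5 and 6101 on the luminal arrays, 4827 and 3874 on the duct suprabasal arrays and 1130.0 and 944.5 on the epidermis arrays. On this probe set luminal arrays were highest and epidermis arrays lowest, and duct basal arrays overlapped with the myoepithelial pair. On the other probe set of Rpa1 luminal arrays were again highest (1929 and 1757), but epidermis (775.5 and 777.5) lay within the range of myoepithelial (1038 and 657) and duct suprabasal arrays (1148 and 769). Between the duct layers Rpa1 did not pass (log2 difference -0.50 ± 0.21 (SE), adjusted p = 0.132), and it was lower in duct basal than in luminal cells (log2 difference -0.95 ± 0.21 (SE), adjusted p = 0.00728), the only one of the 39 called in that direction in any of the 4 comparisons of duct basal cells. Of the other probe sets of these genes, one of Rpa1 had the opposite sign against myoepithelial cells and one of Rpa2 against luminal cells.

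Nucleotide supply held the gene with the largest duct layer difference of the 39. Tk1, which salvages thymidine, had signals of 1170.5 and 1399 on the duct basal arrays, 85.8 and 131 on the myoepithelial arrays, 46.9 and 6.2 on the luminal arrays, 83.6 and 95.5 on the duct suprabasal arrays and 139 and 167.5 on the epidermis arrays. The duct basal pair was far above the rest (log2 difference 3.67 ± 0.49 (SE), adjusted p = 0.00248), and the luminal arrays differed from each other. Rrm2, the S phase subunit of ribonucleotide reductase, had signals of 2542 and 1881 on the duct basal arrays, 90.2 and 105 on the myoepithelial arrays, 29.6 and 35.9 on the luminal arrays, 184 and 253 on the duct suprabasal arrays and 510.0 and 393 on the epidermis arrays. Every population was separate from the others, in the order duct basal, epidermis, duct suprabasal, myoepithelial and luminal (log2 difference 3.27 ± 0.27 (SE), adjusted p = 0.000388 between the duct layers). Its partner Rrm1 had the smallest difference of the tested genes here, with signals of 1110.5 and 1191 on the duct basal arrays, 328.5 and 351 on the myoepithelial arrays, 249.5 and 233 on the luminal arrays, 278 and 339 on the duct suprabasal arrays and 327 and 337 on the epidermis arrays. Its duct basal pair was separate from all other arrays (log2 difference 1.86 ± 0.20 (SE), adjusted p = 0.00094). On the other probe set of Rrm1 the difference was 0.77 and the pair (216 and 122) was not separate. The first myoepithelial (124), duct suprabasal (135) and epidermis (128) arrays lay between its 2 values. Dut, which removes dUTP, rose by 1.88. Tyms, the thymidylate synthase, was listed at 29.2 and 4.6 on the duct basal arrays, 4.5 and 2.0 on the myoepithelial arrays, 1.8 and 29.9 on the luminal arrays, 26.7 and 18.6 on the duct suprabasal arrays and 3.9 and 0.8 on the epidermis arrays. These values are near the floor of the array and Tyms was not tested. Another probe set of Tyms had the opposite sign between the duct layers.

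In the chromatin group Uhrf1, which recognises newly copied methylated DNA and recruits Dnmt1, had signals of 1042 and 1165 on the duct basal arrays, 54.9 and 60.9 on the myoepithelial arrays, 60.6 and 41.2 on the luminal arrays, 105 and 97.5 on the duct suprabasal arrays and 289 and 321 on the epidermis arrays. Duct basal arrays were highest and epidermis arrays second, with all remaining arrays at or below 105 (log2 difference 3.30 ± 0.26 (SE), adjusted p = 0.000378). Dnmt1, the maintenance methyltransferase, had signals of 2326 and 2309 on the duct basal arrays, 753 and 620.0 on the myoepithelial arrays, 679 and 745 on the luminal arrays, 827 and 759.8 on the duct suprabasal arrays and 343 and 391 on the epidermis arrays. Here the duct basal arrays were again highest and the epidermis arrays were lowest (log2 difference 1.53 ± 0.18 (SE), adjusted p = 0.00153). Slbp, which binds the stem loop of histone mRNA, had signals of 2462.5 and 2447 on the duct basal arrays, 1059.6 and 911 on the myoepithelial arrays, 811 and 794 on the luminal arrays, 937 and 858 on the duct suprabasal arrays and 840.0 and 639 on the epidermis arrays. Its duct basal pair stood above the other arrays (log2 difference 1.44 ± 0.19 (SE), adjusted p = 0.00237), and Chaf1b, a subunit of the histone chaperone CAF-1, rose by 1.54. No probe set was annotated to Chaf1a alone.

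**Figure D2:**
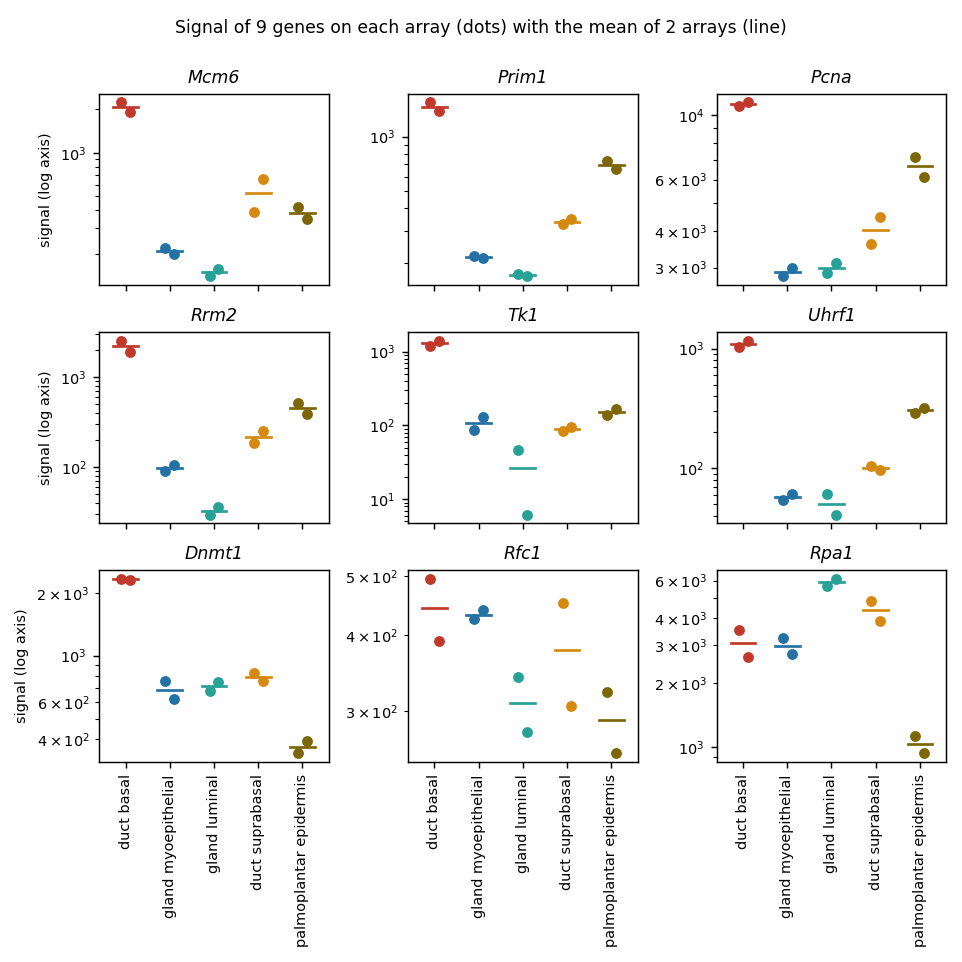
Signal of 9 genes on each array (dots, log axis, populations from duct basal at the left to epidermis at the right) with the mean of the 2 arrays as a line. Duct basal dots lie above all others for Mcm6, Prim1, Pcna, Rrm2, Tk1, Uhrf1 and Dnmt1, the Rfc1 groups overlap, and Rpa1 is highest in luminal cells.

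The regulators had their highest mean in duct basal cells. E2f8, an E2F family member that represses E2F targets and that passed the filter only through the duct basal arrays, had signals of 363 and 368 on the duct basal arrays, 1.9 and 11.4 on the myoepithelial arrays, 9.6 and 3.5 on the luminal arrays, 27.7 and 39.5 on the duct suprabasal arrays and 42.7 and 28.6 on the epidermis arrays. The duct basal pair was over 8-fold above every other array (log2 difference 3.06 ± 0.42 (SE), adjusted p = 0.00287). Ccne2, a cyclin that partners Cdk2 at the start of S phase, had signals of 254 and 141 on the duct basal arrays, 29.7 and 12.1 on the myoepithelial arrays, 17.3 and 29.3 on the luminal arrays, 70.8 and 43.6 on the duct suprabasal arrays and 142.5 and 118 on the epidermis arrays. The duct basal and epidermis arrays overlapped, and the difference between the duct layers passed (log2 difference 1.57 ± 0.44 (SE), adjusted p = 0.041). Ccne1, the other E-type cyclin, had signals of 208 and 156 on the duct basal arrays, 3.3 and 98.2 on the myoepithelial arrays, 27.4 and 7.8 on the luminal arrays, 9.6 and 31.8 on the duct suprabasal arrays and 69.5 and 60.5 on the epidermis arrays. The myoepithelial arrays were far apart and the difference between the duct layers did not pass (log2 difference 2.64 ± 0.82 (SE), adjusted p = 0.0573). E2f1, an activating E2F, had signals of 66.0 and 182 on the duct basal arrays, 23.0 and 21.4 on the myoepithelial arrays, 6.7 and 16.5 on the luminal arrays, 2.7 and 52.1 on the duct suprabasal arrays and 16.8 and 41.3 on the epidermis arrays. Its duct basal arrays were the 2 highest but also far from each other (log2 difference 2.00 ± 0.73 (SE), adjusted p = 0.0943). E2f1 too reached the filter only through the duct basal arrays.

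Duct basal cells were then set against the other 3 populations, with the same 2 duct basal arrays in each comparison. Against myoepithelial cells 29 of the 39 genes were higher and none lower (24.3% of all genes were called, 12.3% as higher), with a median difference of 1.71 over the 40 measured genes and -0.01 over all genes. Among the 35 genes that pass the filter without the duct basal arrays, 28 were higher, and Rrm2 (4.33 ± 0.27, SE), Uhrf1 (4.0), Tk1 (3.45) and Mcm6 (3.23) had the largest differences. Cdc6 (1.22), Rpa2 (0.77), Pold1 (1.20), Pold2 (0.75) and Mcm4 (1.04), which had passed between the duct layers, did not pass here. Immune markers were lower in duct basal cells for 6 of 7, with sums of 564 and 423 in duct basal and 5075 and 6933 in myoepithelial cells. Of the fibroblast markers Col1a1 (3.12) and Pdgfra (3.35) were higher in duct basal cells, and Col1a2, Col3a1, Dcn and Lum did not pass. The part of these transcripts in the result was not tested.

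Against luminal cells 32 were higher and 1, Rpa1, was lower (35.4% of all genes were called, 19.1% as higher and 16.3% as lower), with a median of 2.02 over the 40 and 0.04 over all genes. Rrm2 (5.62 ± 0.27, SE, adjusted p = 5.6e-06) and Tk1 (5.30 ± 0.49) had the largest differences. Among the 35 genes that pass the filter without the duct basal arrays, 29 were higher. All 4 regulators passed in this comparison, including Ccne1 (2.78) and E2f1 (2.41). E2f1 and E2f8 are not among the 35, since they reached the filter only through the duct basal arrays. Of the fibroblast markers Dcn (4.35) and Pdgfra (2.09) and of the pericyte markers Cspg4 (3.16) were higher in duct basal cells too, with summed fibroblast signals of 23954 and 20172 in duct basal and 2140 and 6151 in luminal cells, and their part in the result was not tested.

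Against epidermis 29 were higher and none lower (34.0% of all genes were called, 23.0% as higher and 11.0% as lower), with a median of 1.5 over the 40 and 0.17 over all genes. Among the 35 genes that pass the filter without the duct basal arrays, 27 were higher, and Pold1 (3.26 ± 0.40, SE), Mcm4 (3.07), Tk1 (2.97) and Dnmt1 (2.62) had the largest differences. The other probe set of Pold1 gave 1.64. Rpa1, called higher here at 1.55, differed by only 0.02 on its other probe set. Rfc4 (0.35), Rpa3 (0.42), Pold2 (0.24) and Ccne2 (0.51), all called between the duct layers, did not pass. The other probe set of Rfc4 gave 1.06, and there the duct basal arrays (1101 and 893) lay above the epidermis arrays (470 and 467). Quantile normalization, which forces all arrays to 1 distribution, moved the median of all genes tested by -0.22 in this comparison and changed the split of all calls to 1510 higher and 1125 lower, against 2145 and 1023 as deposited. With it 27 of the replication genes were higher and none lower. Fibroblast markers were higher in duct basal cells for 5 of 6, with sums of 23954 and 20172 in duct basal cells and 1068 and 1341 in epidermis. The pericyte markers Rgs5 (4.07), Pdgfrb (2.87) and Cspg4 (3.15) were higher too. So were the contractile genes Acta2 (3.02), Myh11 (2.07) and Cnn1 (2.18). Of the luminal genes Krt8 (5.92) and Krt18 (5.73) were higher and Aqp5 did not pass (1.14). The part of these transcripts in the result was not tested.

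The gland coil has an outer myoepithelial and an inner luminal layer, and its layers were compared as those of the duct had been. Myoepithelial cells were higher than luminal cells for 6 of the 39 genes and lower for 2 (31.1% of all genes were called, 16.5% as higher and 14.5% as lower), with a median of 0.30 over the 40 measured genes and 0.07 over all genes. The 8 of 39 called are a smaller share than that of all genes. The 6 were Tk1 (1.85 ± 0.49, SE), Pole (1.37 ± 0.38), Rrm2 (1.29 ± 0.27), Mcm4 (1.25 ± 0.38), Prim2 (0.76 ± 0.24) and Mcm7 (0.74 ± 0.21). The 2 were Fen1 (-1.23 ± 0.33) and Rpa1 (-0.99 ± 0.21). Fen1 had signals of 465 and 275 on the myoepithelial arrays and 1079 and 675.5 on the luminal arrays, and the pairs did not overlap.

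These calls rested on few arrays. They fell to 0 of 39 without the second myoepithelial array, to 2 without the second luminal array and to 4 without the first luminal array. Quantile normalization gave 4 higher and 3 lower. Of the other probe sets of these genes, 10 of 31 had the opposite sign here, one of Rrm2 among them, against 2 of 31 between the duct layers. All 7 immune markers were higher in myoepithelial cells, with sums of 5075 and 6933 in myoepithelial and 281 and 931 in luminal cells, and their part in these calls was not tested.

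Whether the layer difference itself differed between duct and gland was tested as an interaction, the duct basal minus duct suprabasal difference minus the myoepithelial minus luminal difference. It was positive and passed for 19 of the 39 genes and negative for none (16.0% of all genes were called, 5.94% as positive and 10.0% as negative), with a median of 1.44 over the 40 and -0.07 over all genes. Uhrf1 (3.13 ± 0.36, SE, adjusted p = 0.00132), E2f8 (3.08 ± 0.60), Fen1 (2.36 ± 0.47) and Rfc4 (2.23 ± 0.32) had the largest values. Among the 35 genes that pass the filter without the duct basal arrays, 18 passed. E2f8 is not among the 35, since it reached the filter only through the duct basal arrays. The calls held 4 of 5 lagging strand genes, 4 of 6 of the clamp group and 3 of 9 licensing genes (Mcm3, Mcm6 and Mcm7), and Mcm5 had a larger value than these 3 that did not pass (1.88 ± 0.58, adjusted p = 0.0576), though it did with quantile normalization (adjusted p = 0.0237). Tk1, with a difference of 3.67 in the duct and 1.85 in the gland, did not pass (1.82 ± 0.69, adjusted p = 0.105). The count was 12 without the second duct basal array and 12 without the second luminal array. Quantile normalization moved the median of all genes tested by 0.18 and their split to 761 positive and 787 negative calls, against 554 and 935 as deposited, and called 23 of the replication genes, all positive.

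**Figure D3:**
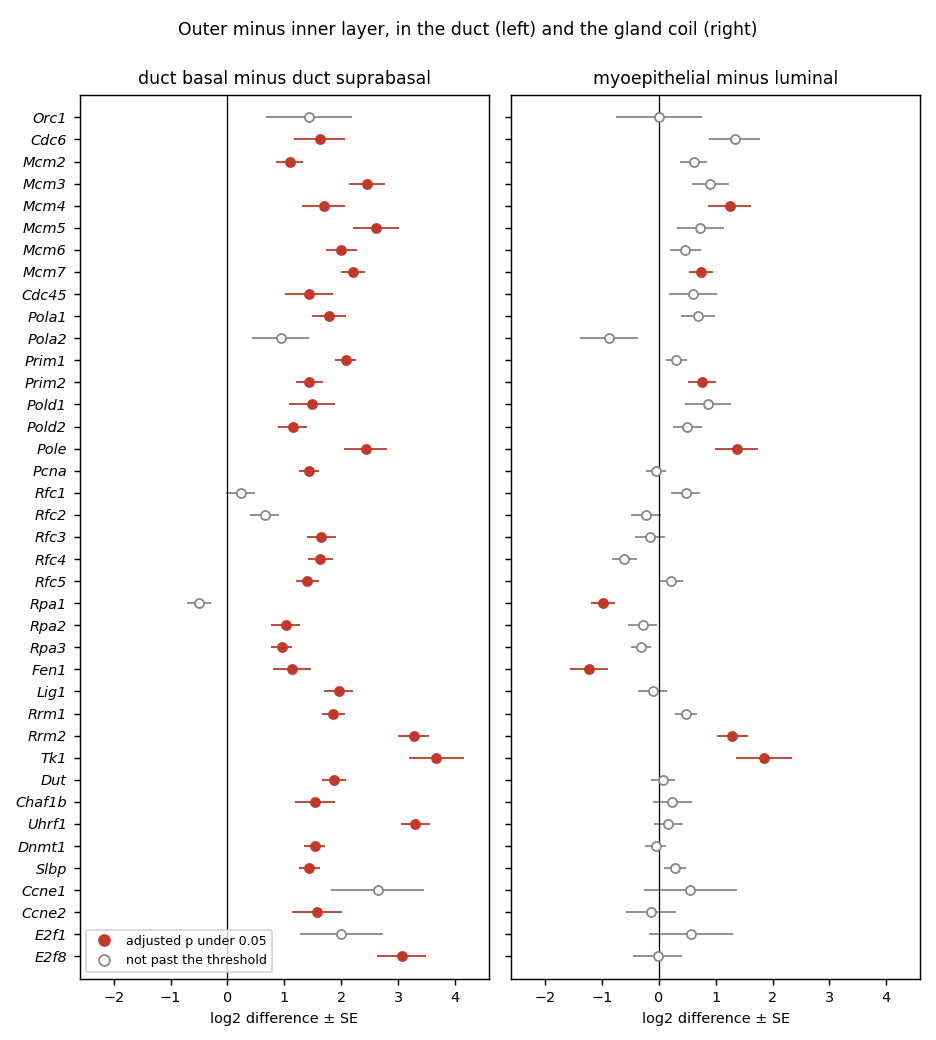
Log2 difference with its SE for the 39 tested genes, duct basal minus duct suprabasal at the left and myoepithelial minus luminal at the right; filled points passed at an adjusted p under 0.05. At the left 32 genes are filled and all lie above 0, while at the right 6 are filled above 0 and 2, Rpa1 and Fen1, below.

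The inner layers of gland and duct were also compared. Luminal cells were lower than duct suprabasal cells for 7 of the 39 genes and higher for none (15.2% of all genes were called, 10.2% as lower and 4.95% as higher), with a median of -0.44 over the 40 and -0.06 over all genes. The 7 were Rrm2 (-2.35 ± 0.27, SE), Mcm6 (-1.70 ± 0.27), Pole (-1.50 ± 0.38), Mcm3 (-1.26 ± 0.32), Mcm7 (-1.02 ± 0.21), Prim1 (-0.93 ± 0.19) and Lig1 (-0.87 ± 0.25). The 7 of 39 called lie close to the share of all genes called. The count was between 2 and 4 without either luminal array, without the second duct suprabasal array or without either epidermis array. With quantile normalization it was 4, and a fit of only the 4 arrays compared called none. Fibroblast and endothelial markers were also lower in luminal cells (5 of 6 and 6 of 6), and without the second duct suprabasal array, which held most of them, 3 replication genes passed. The luminal genes Krt8, Krt18 and Aqp5 did not pass between luminal and duct suprabasal cells. Myoepithelial cells were lower than duct suprabasal cells for 4 genes and higher for none (17.4% of all genes were called, 9.27% as lower and 8.14% as higher), namely Mcm6 (-1.23), Rrm2 (-1.06), Lig1 (-0.98) and Prim1 (-0.62). The 4 of 39 lie close to the share of all genes called lower, and quantile normalization gave 3. All 6 endothelial and 5 of 6 fibroblast markers were lower in myoepithelial cells and 5 of 7 immune markers higher, and their part in these calls was not tested.

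Set against epidermis, the replication genes of the other 3 populations were called in both directions. Myoepithelial cells were higher than epidermis for 6 genes and lower for 11 (51.6% of all genes were called, 31.6% as higher and 19.9% as lower). Uhrf1 (-2.18 ± 0.26, SE), Ccne2 (-2.16 ± 0.44), Rrm2 (-2.08 ± 0.27), Rfc4 (-1.92 ± 0.22) and Prim1 (-1.65 ± 0.19) were the lowest, and E2f8, Pcna, Mcm5, Lig1, Mcm6 and Rpa3 were the other 6 lower ones. The 6 higher ones were Pold1 (2.06 ± 0.40), Mcm4 (2.03 ± 0.38), Rpa1 (1.51 ± 0.21), Pola1 (1.22 ± 0.30), Dnmt1 (0.88 ± 0.18) and Dut (0.82 ± 0.21). Mcm4 had signals of 2849 and 1197 on the duct basal arrays, 926 and 862 on the myoepithelial arrays, 454 and 301 on the luminal arrays, 662 and 481 on the duct suprabasal arrays and 196 and 224 on the epidermis arrays. Both epidermis arrays were below every other array, unlike Mcm5 and Mcm6 of the same helicase ring, for which the luminal arrays were lowest.

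Pold1, the catalytic subunit of polymerase delta, had signals of 616 and 644 on the duct basal arrays, 287 and 249 on the myoepithelial arrays, 124 and 160.4 on the luminal arrays, 191 and 247 on the duct suprabasal arrays and 94.8 and 29.8 on the epidermis arrays, and its epidermis pair was again below all others. On the other probe set of Pold1 the epidermis arrays (80.7 and 94.6) overlapped with the myoepithelial (92.0 and 117), luminal (97.9 and 86.1) and duct suprabasal arrays (78.4 and 153). Pold2, its accessory subunit, had signals of 618 and 573 on the duct basal arrays, 410.0 and 296 on the myoepithelial arrays, 219 and 269 on the luminal arrays, 218 and 315 on the duct suprabasal arrays and 513 and 492 on the epidermis arrays, and there the epidermis pair was second only to duct basal cells. Luminal cells were higher than epidermis for 5 genes and lower for 17 (45.2% of all genes were called, 26.1% as higher and 19.2% as lower), and duct suprabasal cells higher for 4 and lower for 7 (46.0%, 29.4% and 16.7%). These 3 comparisons share the epidermis arrays. On the probe sets tested, Rpa1, Dnmt1 and Pold1 were higher than epidermis in all 3 (1.51, 0.88 and 2.06 in myoepithelial, 2.50, 0.94 and 1.20 in luminal, 2.05, 1.09 and 1.78 in duct suprabasal cells). For Rpa1 in myoepithelial and duct suprabasal cells and for Pold1 in all 3, the other probe set did not keep the populations apart from epidermis. Prim1, Pcna, Rfc4, Rrm2 and Uhrf1 were lower in all 3, with Rrm2 at -2.08, -3.37 and -1.02 and Uhrf1 at -2.18, -2.35 and -1.49 in the same order.

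These counts changed with the normalization. Quantile normalization moved the median of all genes tested by -0.30 for myoepithelial cells, -0.19 for luminal cells and -0.36 for duct suprabasal cells minus epidermis. All calls then split into 2194 higher and 2322 lower for myoepithelial cells, against 2949 and 1856 as deposited, and into 1917 and 2086 for duct suprabasal cells, against 2739 and 1552. The replication genes split into 4 higher and 16 lower in myoepithelial, 2 and 21 in luminal and 2 and 12 in duct suprabasal cells. Rpa1 and Dnmt1 were still called higher in all 3, Mcm4 and Pold1 only in myoepithelial cells, and Pola1 and Dut in none. No gene called as deposited changed sign.

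**Figure D4:**
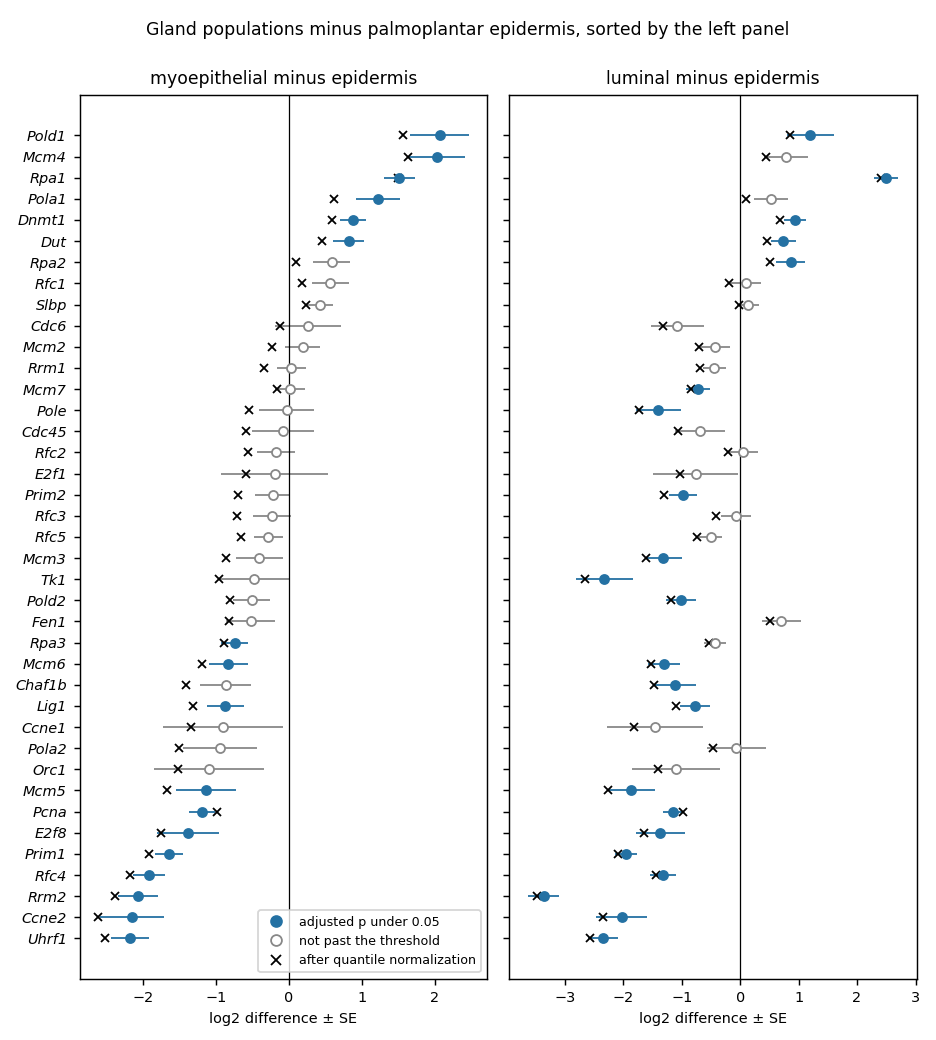
Log2 difference with its SE for the 39 tested genes, myoepithelial minus epidermis at the left and luminal minus epidermis at the right, sorted by the left panel; filled points passed and crosses show the difference after quantile normalization. The genes run from Uhrf1 at -2.18 to Pold1 at 2.06 at the left, and in both panels 38 of the 39 crosses lie to the left of their points, with Pcna the exception.

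Other genes of the cell cycle were read from lists that did not overlap with the 41. Of 39 further replication factors 32 were measured and tested, and 18 were higher and none lower in duct basal than in duct suprabasal cells, with a median of 1.07. In this comparison 7.97% of all genes tested were called higher and 8.39% lower. Cdt1, which loads the helicase with Cdc6, led with signals of 2088 and 2083 on the duct basal arrays and 267 and 311 on the duct suprabasal arrays (2.80 ± 0.20, SE), followed by Dtl, part of the ligase that degrades Cdt1 (2.79 ± 0.59), the chromatin remodeller Hells (2.70 ± 0.32) and the histone chaperone Asf1b (2.65 ± 0.27). The origin recognition subunits Orc2, Orc3, Orc4 and Orc5 did not pass in any comparison of duct basal cells, with differences between -0.59 and 0.72, while Orc6 was higher than in duct suprabasal cells (0.93). Of 22 mitosis genes 20 were higher and none lower, with a median of 2.90, led by Ube2c, the ubiquitin-conjugating enzyme of mitotic exit (3.79), Birc5 (3.78), Cdc20 (3.57) and Cdk1 (3.49). For neither list was the count repeated for genes that pass the filter without the duct basal arrays.

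The mitosis genes spanned a wider range over the arrays than the replication genes. The median signal of the mitosis genes was 809 and 790.0 on the duct basal arrays, 30.7 and 30.6 on the myoepithelial, 18.5 and 21.4 on the luminal, 90.7 and 104 on the duct suprabasal and 99.9 and 140.0 on the epidermis arrays. Minus epidermis, 17 of the 22 mitosis genes were lower in myoepithelial cells and none higher, with a median of -1.64. Among all genes tested 19.9% were called lower in that comparison and 31.6% higher.

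Between the duct layers 7.97% of all genes tested were called higher and 8.39% lower in duct basal cells. Of 17 tested regulators of the passage from G1 to S phase, 7 were higher and 1 lower in duct basal than in duct suprabasal cells. The higher ones with the largest differences were the S phase cyclin Ccna2 (2.55 ± 0.26, SE), the D-type cyclin Ccnd2 (2.50 ± 0.59), Myc (1.99 ± 0.39) and the pocket protein gene Rbl1 (1.59 ± 0.25), and the lower one was E2f5 (-1.07 ± 0.31). Ccnd2 did not separate duct basal from myoepithelial cells (0.07 ± 0.59, adjusted p = 0.951), with signals of 4851 and 3410.2 on the duct basal arrays, 3140.0 and 4795.5 on the myoepithelial arrays, 44.0 and 102 on the luminal arrays, 352 and 1425 on the duct suprabasal arrays and 273 and 426 on the epidermis arrays. Ccnd1, another D-type cyclin, differed by -0.25 between the duct layers and did not pass.

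Of 11 tested inhibitors of cyclin-dependent kinases and antiproliferative genes, 1 was higher and 2 were lower in duct basal than in duct suprabasal cells. The shares of all genes tested were 7.97% as higher and 8.39% as lower, and 1 of 11 lies close to the first. Cdkn2d was the higher one (1.41 ± 0.31, SE), and Cdkn2b (-1.36 ± 0.39) and Cdkn1a, which encodes p21 (-1.09 ± 0.28), were the lower ones. Cdkn1a had signals of 1273 and 1674 on the duct basal arrays, 543 and 387 on the myoepithelial arrays, 122 and 206 on the luminal arrays, 3440.5 and 2815 on the duct suprabasal arrays and 10550.0 and 8976 on the epidermis arrays. Epidermis was highest and duct suprabasal cells were second, with no overlap between these populations. Cdkn1c, which encodes p57, was lower in duct basal than in myoepithelial cells (-3.16 ± 0.60), with signals of 90.5 and 131 on the duct basal arrays, 1044 and 1105 on the myoepithelial arrays, 19.9 and 52.6 on the luminal arrays, 38.2 and 185 on the duct suprabasal arrays and 2.4 and 5.9 on the epidermis arrays, and was brightest in myoepithelial cells.

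**Figure D5:**
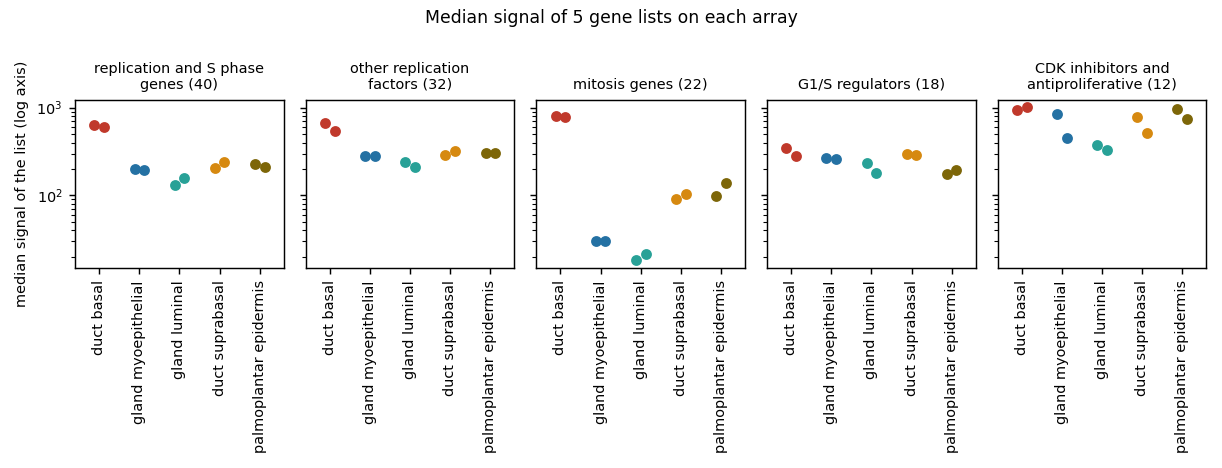
Median signal (log axis) of 5 gene lists on each array, populations from duct basal at the left to epidermis at the right, with the number of measured genes in brackets. The replication, other replication and mitosis lists are highest on both duct basal arrays, mitosis genes span from 18.5 to 809, and the lists of regulators and of inhibitors overlap between populations.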

How the data were processed

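Total RNA of 5 sorted mouse populations was measured on 10 arrays. The labels' protocols name Trizol for the extraction and the standard Affymetrix labelling with biotin. The authors deposited linear MAS5 signal intensity values, according to the submitters' processing notes; the version of MAS5 is not given in the sources used here. Each array had a mean of 500 after trimming 2% at either end. Detection calls were not used.

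Of 22690 probe sets, 64 controls were left out. The platform annotation gave 1 symbol for 20380, several for 691 and none for 1555. Each of 12393 genes was represented by its single-gene probe set of highest mean. The 41 genes had 71 probe sets, and 23 genes had more than 1. Signals were converted to log2(signal + 12). A model of all 10 arrays (limma 3.58.1, R 4.3.3) with 5 residual degrees of freedom and variances that follow the mean gave the p-values, adjusted by Benjamini and Hochberg over 9320 genes. Log2 differences carry their standard error (SE). A population's arrays enter every comparison it belongs to.

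The genes, lists and tests were chosen with earlier results of these data known. Array values are given for the genes with the largest and smallest duct layer difference in each functional group, for genes that go against their group, and for those that were not tested or whose probe sets disagree. Dnmt1, Rrm2, E2f1, Ccne1 and Orc1 belong to these or to the genes that missed a threshold, and Mcm4, Mcm6, Prim1, Pcna, Pold1, Pold2, Fen1, the Orc genes, Cdt1, Ccnd1, Ccnd2, Cdkn1a and Cdkn1c were added after their values were seen. On simulated arrays with duct layer changes in 50 genes per size, 16% of the 2-fold and 62% of the 4-fold changes were called, as were 94% at 8-fold and 94% at 16-fold. There were 4 false calls among 137. The settings varied were the pseudocount (1 and 50), the normalization (quantile), the filter (none or the 60th percentile), the mean of all probe sets, variances without trend, the replicate number as a block, the compared arrays alone and each array left out.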

Additional observations from a re-analysis of the deposited data

Results flagged for a closer look

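The difference between outer and inner layer was itself unequal in duct and gland for 19 of the 39 genes tested, by the interaction term of the limma fit (5.94% of all genes were positive and passed). Its signed value was higher in the duct for each of them, and Fen1 passed within both duct and gland with opposite signs. The count was 12 without the second duct basal or the second luminal array and 23 with quantile normalization. Of the helicase the 19 included Mcm3 (1.55 on the log2 scale), Mcm6 (1.54) and Mcm7 (1.47), and of the polymerase and primase genes Prim1 (1.77). The clamp Pcna (1.48) and the clamp loader genes Rfc3 (1.81), Rfc4 (2.23) and Rfc5 (1.18) were in the same group. So were Rpa2 (1.30), Rpa3 (1.27), Fen1 (2.36) and Lig1 (2.06) of the lagging strand. Of nucleotide supply there were Rrm1 (1.39), Rrm2 (1.98) and Dut (1.80), and of the chromatin genes Uhrf1 (3.13), Dnmt1 (1.59) and Slbp (1.15). E2f8 (3.08) was the only regulator among them, and it reached the filter only through the duct basal arrays.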

How the results depend on the processing

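Over the alternatives, no gene called in a comparison of duct basal cells, between the gland layers, between the inner layers or in the interaction changed its direction. Of 3268 values of such genes, 2974 kept their side of the threshold and 294 lost it. Between the duct layers the 32 calls fell to 16 in a fit of the 4 compared arrays, whose fewer samples leave fewer degrees of freedom, and ranged from 22 to 30 with 1 array left out. For luminal against duct suprabasal cells the 7 calls fell to 4 with quantile normalization, to 0 with the compared arrays alone, and to 3 without the first myoepithelial and the second duct suprabasal array, a setting chosen after seeing the data. The cause of these losses was not tested. With 1 array left out the counts ranged from 2 to 7 for luminal against duct suprabasal cells, from 0 to 11 for myoepithelial against luminal cells (8 as reported) and from 12 to 19 for the interaction (19). Against epidermis, myoepithelial and luminal cells these ranges were 21 to 30, 24 to 33 and 30 to 34 for duct basal cells, and 31 to 36 for the F test.

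Arrays of all populations are numbered 1 and 2, and nothing in the labels pairs them by number. The deviations of same-numbered arrays correlated between 0.03 and 0.36 over 10 pairs of populations. All 6 pairs among the duct and gland populations were above 0.1 and the 4 pairs with epidermis below it. The labels give no shared source and there are only 2 numbers, so they were not taken as pairs. With the replicate number as a block the counts were 34 between the duct layers, 30, 32 and 33 for duct basal cells against epidermis, myoepithelial and luminal cells, 9 between the gland layers, 9 between the inner layers, 19 for the interaction and 34 for the F test.

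With 2 arrays per population the spread is known poorly, and the fit takes it as equal in all populations although the duct suprabasal arrays differed most. Dim genes such as Orc1, E2f1 and Ccne1 had large differences that did not pass. Without detection calls, low signals cannot be told from background.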
